A study of Mus musculus with 4 samples.

Results

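The Sonic hedgehog (Shh) pathway was followed through 9 genes in single cells of the mouse cerebellum: the transcription factors Gli1, Gli2 and Gli3, the receptor Ptch1, the signal transducer Smo, the coreceptor Boc, the hedgehog-binding inhibitor Hhip, and the growth genes Ccnd1 and Mycn. They were chosen by symbol, not by their values, and are 9 of the 32285 genes in the count tables. All 9 were found. Each was read in 3 cell classes: granule cell progenitors, which hold Atoh1 RNA, postmitotic granule neurons, and astroglia.

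The study compared Eftud2 cKO mice (conditional knockout of a spliceosomal GTPase) with WT mice at postnatal day 14 (P14) and day 10 (P10). Whole cerebella were dissociated and sequenced on the 10x Genomics droplet platform, with 1 library for each genotype and age: P14 cKO, P14 WT, P10 cKO and P10 WT. The series' title places the deficiency in Purkinje cells, and the labels give no Cre driver, deleted exon, sex or number of animals. No group has a second library, so a cKO and WT pair of 1 age has no replicate check, and any difference between mice or between preparations cannot be told apart from genotype.

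Sonic hedgehog is secreted by Purkinje cells and drives granule cell progenitors of the external granule layer to divide. In the absence of ligand Ptch1 holds Smo inactive. Ligand relieves that hold, active Smo at the primary cilium turns the Gli factors towards activation, and Gli1, Ptch1 and Hhip are themselves transcribed in response, which makes them the usual readouts of the pathway. Bergmann glia, the radial astroglia of the cerebellar cortex, also receive the signal.

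After filters the libraries held 6148 cells in P14 cKO, 14876 in P14 WT, 6417 in P10 cKO and 13723 in P10 WT, with median UMI counts (unique molecular identifiers, 1 per captured RNA molecule) of 12209, 7699, 10872 and 8325 per cell in the same order. Between 7 and 76 cell barcodes were shared by any pair of libraries. Eftud2 itself stood at 44.8 CPM in P14 cKO, 47.3 in P14 WT, 55.7 in P10 cKO and 52.1 in P10 WT whole libraries (CPM, the gene's UMIs scaled so that every sum of cells has the same total), so the targeted gene does not separate the labelled genotypes in these sums. The file headers name Cell Ranger 7.1.0 for both P14 libraries, 7.0.1 for P10 cKO and 5.0.0 for P10 WT. Only the P14 pair shares a version.

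Progenitors were the cells with at least 1 Atoh1 UMI and 3 of 6 granule lineage markers. They numbered 113 in P14 cKO, 617 in P14 WT, 329 in P10 cKO and 692 in P10 WT. Granule neurons had no Atoh1 UMI, at most 1 of 12 cell cycle markers and at least 3 of 8 postmitotic markers, and numbered 1697, 5881, 2024 and 1192 in the same order. Astroglia had at least 4 of 8 markers such as Aqp4 and Slc1a3 and numbered 152, 951, 167 and 321. No gate used any of the 9 genes.

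In GENCODE vM21 (GRCm38) the genes lie on 8 chromosomes. The transcription factors Gli1 (chromosome 10, 127329882 to 127341974, minus strand) and Gli2 (chromosome 1, 118834132 to 119053619, minus) are on separate chromosomes, and Gli3 (15463235 to 15730026, plus) shares chromosome 13 with Ptch1 (63508328 to 63573598, minus). Smo is on chromosome 6 (29735503 to 29761365, plus), Boc on chromosome 16 (44485049 to 44558897, minus) and Hhip on chromosome 8 (79965851 to 80058006, minus). Ccnd1 is on chromosome 7 (144929931 to 144939925, minus) and Mycn on chromosome 12 (12936093 to 12941914, minus).

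The label of progenitors fits Mki67, a marker their gate did not use, and that of astroglia fits in part. Mki67 is among the 12 cell cycle markers that the granule neuron gate limits. Low Mki67 in granule neurons therefore follows in part from the gate and does not test their label. Progenitors had 333, 478, 407 and 701 CPM of Mki67, a proliferation marker, in P14 cKO, P14 WT, P10 cKO and P10 WT, against 1.41, 3.15, 3.90 and 11.9 CPM in granule neurons. The astroglial gate, however, also held granule lineage RNA. Atoh1 UMIs were present in 11.2%, 15.4%, 24.6% and 25.5% of its cells, and Mki67 stood at 278, 282, 357 and 651 CPM. A stricter set, chosen after these values were seen, kept the astroglia with no Atoh1 UMI and at most 2 of the 6 granule lineage markers. It left 64, 397, 57 and 124 cells with Mki67 at 0, 2.12, 3.36 and 28.3 CPM, and it is called strict astroglia below.

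The ligand was nearly absent from the suspensions. Shh had 0 UMIs in every cell class of every library, and whole libraries held 0 Shh UMIs in P14 cKO, 3 in P14 WT, 0 in P10 cKO and 1 in P10 WT. A count of 0 allows up to 0.0350 CPM in P14 cKO and 0.0344 CPM in P10 cKO. Cells meeting the Purkinje gate numbered 1, 2, 1 and 1, so the source of the ligand was not sampled at this depth. Intervals and such limits here cover counting error only.

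Promoter sequence was available for 6 of the 9 genes from RefSeq (GRCm38.p6). Those of Gli2, Smo and Hhip are shown because the 3 genes behave differently across the classes: Gli2 is shared by progenitors and astroglia, Smo is found in all 3 classes, and Hhip is higher in astroglia than in the granule lineage. The windows are the 250 bases upstream of the transcription start, written 5′ to 3′ on the gene's strand, at chr1:119053620-119053869 (minus), chr6:29735247-29735496 (plus) and chr8:80058009-80058258 (minus). Capitals mark a GC box, GGGCGG or its reverse complement CCGCCC.
Gli2: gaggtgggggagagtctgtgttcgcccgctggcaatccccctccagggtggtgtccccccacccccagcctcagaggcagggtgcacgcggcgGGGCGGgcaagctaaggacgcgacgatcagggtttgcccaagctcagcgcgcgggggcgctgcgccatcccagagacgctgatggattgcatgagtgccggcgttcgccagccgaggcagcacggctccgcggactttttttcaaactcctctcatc
Smo: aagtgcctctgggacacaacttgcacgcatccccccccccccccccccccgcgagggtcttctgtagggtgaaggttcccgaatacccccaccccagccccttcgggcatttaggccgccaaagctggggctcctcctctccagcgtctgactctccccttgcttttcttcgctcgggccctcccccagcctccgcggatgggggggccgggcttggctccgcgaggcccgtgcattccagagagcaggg
Hhip: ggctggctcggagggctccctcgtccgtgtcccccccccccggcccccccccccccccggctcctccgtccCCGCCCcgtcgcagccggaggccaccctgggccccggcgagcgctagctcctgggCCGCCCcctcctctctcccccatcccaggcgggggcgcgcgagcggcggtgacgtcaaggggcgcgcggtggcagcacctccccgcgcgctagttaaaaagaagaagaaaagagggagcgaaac
The Gli2 window holds 1 GC box, the Smo window 0 and the Hhip window 2. Over the 6 genes, 5 windows hold at least 1, against 32.7% of 32851 promoters. The Gli motif GACCACCCA, searched on both strands (TGGGTGGTC), is in 0 of the 6 windows and in 0.225% of all of them. A match is a description of letters and not a site, and its absence speaks only for this window.

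Progenitors differed from granule neurons most in the 3 Gli factors and in Ccnd1. Gli1, the activator whose transcription follows pathway activity, had 6.87 CPM in P14 cKO, 15.6 in P14 WT, 18.0 in P10 cKO and 20.3 in P10 WT progenitors, against 0.339, 0.425, 0.642 and 0.298 CPM in granule neurons. Every progenitor library lay above every neuronal one, and the neuronal values lay under those of microglia and macrophages (0.604, 0.482, 0.655 and 1.43 CPM), a class that should lack Gli1. On 12, 112, 86 and 156 progenitor UMIs, Gli1 was 33.3-fold higher in progenitors than in granule neurons (log2 difference 5.06 ± 0.33 SE, adjusted p = 9.08e-08, edgeR quasi-likelihood test over 4 libraries with library as a block).

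Gli2, the main transcriptional activator of the pathway, had 91.7, 103, 193 and 28.3 CPM in P14 cKO, P14 WT, P10 cKO and P10 WT progenitors, against 4.74, 7.42, 14.8 and 5.06 CPM in granule neurons. Gli3, which acts mainly as a repressor when ligand is absent, had 59.6, 78.7, 87.9 and 16.9 CPM in progenitors, against 1.30, 2.35, 2.03 and 1.34 CPM in granule neurons. For both genes the lowest progenitor library, P10 WT, still lay above every neuronal library. The edgeR log2 differences were 3.64 ± 0.21 for Gli2 (12.5-fold, adjusted p = 3.55e-08) and 5.15 ± 0.24 for Gli3 (35.5-fold, adjusted p = 4.47e-09).

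Ccnd1 encodes cyclin D1, which carries cells into S phase. Its level was 64.2, 107, 113 and 167 CPM in P14 cKO, P14 WT, P10 cKO and P10 WT progenitors, against 3.27, 3.62, 5.35 and 11.2 CPM in granule neurons, a 20.6-fold difference (log2 4.36 ± 0.17, adjusted p = 9.80e-10). Mycn, a Myc family factor that sustains progenitor growth, had 59.0, 53.7, 88.3 and 117 CPM in progenitors, against 25.7, 40.3, 42.1 and 54.8 CPM in granule neurons. Within each library Mycn was higher in progenitors, but the lowest progenitor value lay below the highest neuronal one, and the log2 difference was 0.86 ± 0.15 (adjusted p = 0.000445).

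The receptor Ptch1 and the transducer Smo changed far less than the Gli factors and Ccnd1. Ptch1 had 126, 136, 207 and 93.2 CPM in P14 cKO, P14 WT, P10 cKO and P10 WT progenitors, against 94.0, 116, 142 and 69.2 CPM in granule neurons. The 2 classes overlapped across libraries, and progenitors were the higher within each library, by 0.37 ± 0.11 on the log2 scale (adjusted p = 0.0114). That call was lost without the P10 cKO library (0.35, adjusted p = 0.0536), with cells thinned to 3000 UMIs (0.18, adjusted p = 0.353), with a stricter gate of 5 of 8 markers (0.11, adjusted p = 0.648), and when strict astroglia entered the fit (0.33, adjusted p = 0.0946).

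Smo, the transducer, had 55.6, 65.0, 83.5 and 67.9 CPM in progenitors, against 28.9, 39.4, 54.4 and 47.0 CPM in granule neurons, in the same order of libraries, and was higher by 0.65 ± 0.11 (adjusted p = 0.000205). Boc, which binds ligand together with Ptch1, had 63.6, 93.8, 193 and 38.2 CPM in progenitors, against 32.8, 28.4, 40.9 and 6.70 CPM in granule neurons, and was higher by 1.74 ± 0.19 (adjusted p = 7.77e-06). P10 WT was the lowest library for Boc in both classes. Hhip was sparse, with 1, 4, 8 and 5 UMIs in progenitors and 9, 4, 6 and 2 in granule neurons. Its log2 difference of 1.83 ± 0.62 (adjusted p = 0.0241) was lost without P10 WT, P10 cKO or P14 WT (adjusted p between 0.0529 and 0.160), and with 3 of 8 markers (0.87, adjusted p = 0.120).

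All 9 genes were thus called higher in progenitors, in a comparison that called 59.4% of the 13881 genes tested, 30.3% as higher and 29.1% as lower. Their median log2 difference was 1.83, against −0.01 over all genes. How far the limit on cell cycle markers in the neuron gate enters these calls was not tested. With strict astroglia in the fit 7 of 8 tested members were called, where Hhip was too low to test and 52.1% of genes were called.

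**Figure D1:**
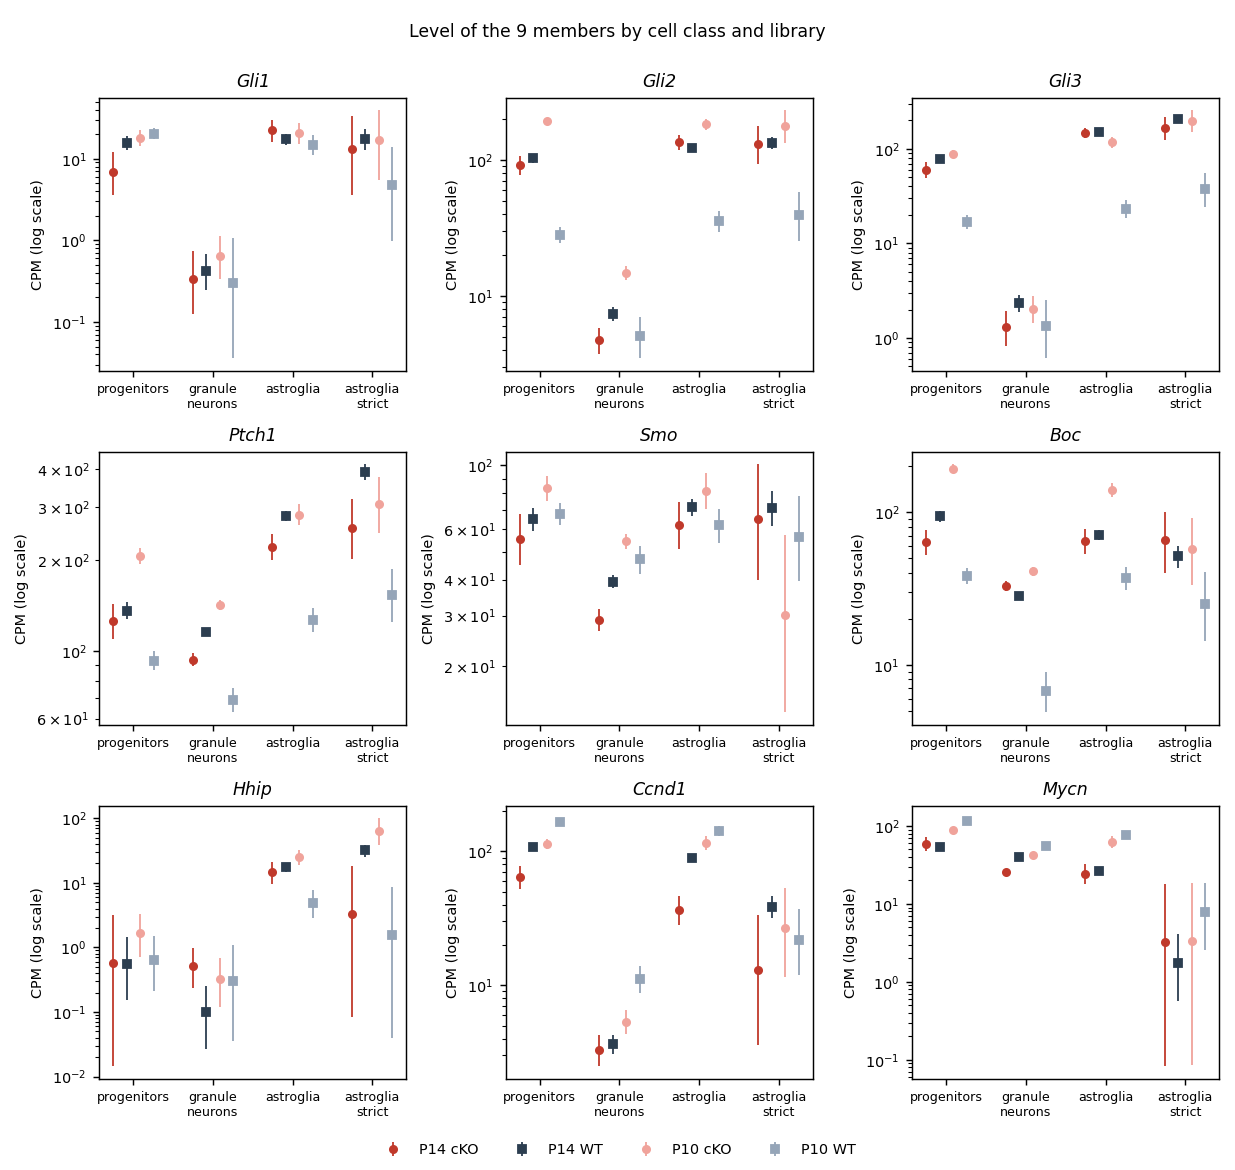
Level of each of the 9 genes in CPM (log axis) in progenitors, granule neurons, astroglia and strict astroglia. Points are libraries (circles cKO, squares WT) and bars are exact 95% counting intervals; Gli1, Gli2, Gli3 and Ccnd1 are lowest in granule neurons in every library, and Smo has the least spread between classes.

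Detection per cell followed the same pattern. With each cell thinned to 2000 UMIs, Gli1 was seen in 0.885%, 2.44%, 2.74% and 3.37% of P14 cKO, P14 WT, P10 cKO and P10 WT progenitors, and in 0.0602%, 0.0707%, 0.150% and 0.0972% of granule neurons. Microglia and macrophages, which serve as the background, showed it in 0%, 0.147%, 0% and 0.180%, where the 0 of 375 and 0 of 288 cells allow up to 0.800% and 1.04%. The neuronal shares of Gli1 are therefore read as background.

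Ptch1 behaved otherwise. It was seen in 24.8%, 22.8%, 30.7% and 15.8% of thinned progenitors and in 17.3%, 20.4%, 25.5% and 12.5% of thinned granule neurons, against 3.47%, 3.39%, 4.51% and 2.52% of microglia and macrophages. Ptch1 RNA in granule neurons was thus above the background class in all 4 libraries. Unthinned, the shares were 72.6%, 68.2%, 83.6% and 56.8% of progenitors and 55.0%, 48.5%, 64.8% and 29.2% of granule neurons, and Gli1 was seen in 7.96%, 13.8%, 20.1% and 18.6% of progenitors. Median depths ran from 10607.5 to 14178 UMIs in progenitors, 5706.5 to 10594 in granule neurons and 6463 to 10823 in microglia and macrophages.

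Progenitors had less Ptch1 and Gli3 than astroglia, and no called difference in Gli1 or Gli2. Ptch1 had 126, 136, 207 and 93.2 CPM in P14 cKO, P14 WT, P10 cKO and P10 WT progenitors, against 221, 280, 283 and 127 CPM in astroglia, with the strict set at 255, 391, 306 and 154 CPM. Progenitors were the lower in every library, by 0.63 ± 0.11 (adjusted p = 0.000602, edgeR) against astroglia and by 1.04 ± 0.17 (adjusted p = 9.40e-05) against strict astroglia. In Gli3, astroglia stood at 148, 151, 117 and 23.4 CPM, and the strict set at 167, 205, 198 and 37.7 CPM. Its log2 difference, progenitors over astroglia, was −0.75 ± 0.18 (adjusted p = 0.00444) and −1.39 ± 0.18 with the strict set (adjusted p = 5.73e-06). The first of these was lost without P14 WT (adjusted p = 0.0512) and in DESeq2 (adjusted p = 0.0508), and under gates of 2 Atoh1 UMIs (−0.47, adjusted p = 0.0550) and 3 of 8 markers (−0.38, adjusted p = 0.0620).

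Gli1 and Gli2 did not separate the 2 classes. Astroglia had 22.2, 17.2, 20.5 and 14.8 CPM of Gli1, and the strict set 13.1, 17.3, 16.8 and 4.71 CPM, values that overlap those of progenitors given above. The log2 difference of progenitors over astroglia was −0.14 ± 0.25 (adjusted p = 0.670), and 0.16 ± 0.36 with the strict set (adjusted p = 0.713). Gli2 had 135, 123, 184 and 35.6 CPM in astroglia, with the strict set at 131, 134, 178 and 39.2 CPM. Its difference was −0.21 ± 0.19 (adjusted p = 0.377), and −0.38 ± 0.21 with the strict set (adjusted p = 0.123). Gli2 was called lower in progenitors under other gates, at −0.93 with 5 of 8 markers (adjusted p = 0.0116) and −0.52 with thinned cells (adjusted p = 0.0388).

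Hhip, a decoy that binds hedgehog ligand at the cell surface, was nearly absent from the granule lineage. Progenitors had 0.573, 0.558, 1.68 and 0.650 CPM in P14 cKO, P14 WT, P10 cKO and P10 WT, against 14.7, 17.3, 24.99 and 4.84 CPM in astroglia, a log2 difference of −3.97 ± 0.43 (adjusted p = 1.53e-05). In strict astroglia it stood at 3.27, 31.8, 63.8 and 1.57 CPM, on 1, 90, 19 and 1 UMIs. The oligodendrocyte lineage held the most of any class in each library, at 94.9, 90.7, 115 and 32.1 CPM, and GABAergic interneurons had 16.9, 16.4, 26.5 and 9.25 CPM.

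The growth genes were the part of the set that the composition of the astroglial gate touched most. Astroglia had 24.4, 26.7, 62.5 and 76.6 CPM of Mycn, but the strict set only 3.27, 1.77, 3.36 and 7.85 CPM, on 1, 5, 1 and 5 UMIs. Progenitors exceeded the first by 0.88 ± 0.17 (adjusted p = 0.00103) and the second by 4.58 ± 0.31 on the log2 scale (adjusted p = 7.72e-09), with no overlap of libraries in the strict comparison. Ccnd1 had 36.4, 89.6, 116 and 143 CPM in astroglia, a difference that was not called (0.33 ± 0.14, adjusted p = 0.0798), and the strict set had 13.1, 38.5, 26.9 and 22.0 CPM, which all lay below every progenitor library (1.86 ± 0.28, adjusted p = 3.12e-05). With all astroglia the Ccnd1 difference was called when cells were thinned (1.75, adjusted p = 4.04e-05), with 3 of 8 markers (0.73, adjusted p = 0.000428) and with 2 Atoh1 UMIs (0.58, adjusted p = 0.00730).

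Boc and Smo completed the set. Boc had 64.6, 71.0, 140 and 37.0 CPM in astroglia (progenitors over astroglia 0.34 ± 0.19, adjusted p = 0.157), and the strict set had 65.3, 51.2, 57.1 and 25.1 CPM (0.83 ± 0.26, adjusted p = 0.0124). The first difference was called when P14 cKO was left out (0.43, adjusted p = 0.0343), with thinned cells (1.00, adjusted p = 0.00214), with 2 Atoh1 UMIs (0.61, adjusted p = 0.0304) and with 3 of 8 markers (0.48, adjusted p = 0.0184). Smo showed 61.9, 71.4, 81.7 and 61.8 CPM in astroglia, with the strict set at 65.3, 71.0, 30.2 and 56.5 CPM. The difference was 0.03 ± 0.11 (adjusted p = 0.842), a size that changed sign between settings, and 0.12 ± 0.22 with the strict set (adjusted p = 0.650). In all, 4 of 9 members were called between progenitors and astroglia, where 50.1% of genes were, 29.1% as higher and 21% as lower, and 5 of 8 between progenitors and strict astroglia, where 64.1% were.

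Granule neurons lay below astroglia in 8 of 9 members, in a comparison that called 65.7% of genes, 32.5% as higher and 33.2% as lower. The log2 differences, granule neurons over astroglia, ran from −0.62 for Smo to −5.90 for Gli3. Mycn was the exception at 0.02 ± 0.16 (adjusted p = 0.911). Against strict astroglia, where 64.2% of genes were called, 6 of 8 tested members were lower. Mycn was then higher in granule neurons by 3.74 ± 0.33 (adjusted p = 1.03e-07), and Smo was no longer called (−0.49, adjusted p = 0.0561).

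**Figure D2:**
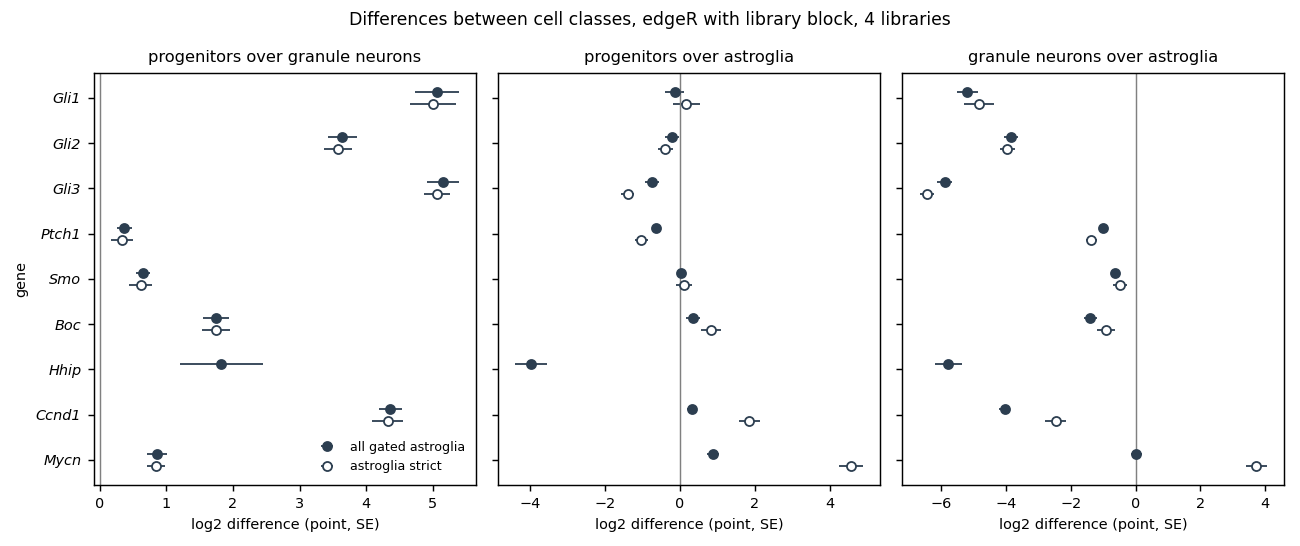
Log2 difference of each gene between classes (point, with SE as the bar; edgeR, 4 libraries), with all gated astroglia (filled) or strict astroglia (open) in the fit. All 9 genes lie right of 0 in progenitors over granule neurons, and Mycn and Ccnd1 move furthest to the right in progenitors over astroglia when the strict set is used.

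Outside these 3 classes, Ccnd1 was highest in endothelial cells, at 178, 316, 283 and 471 CPM in P14 cKO, P14 WT, P10 cKO and P10 WT. Mycn in GABAergic interneurons stood at 88.4, 87.9, 71.2 and 109 CPM, close to its range in progenitors. Gli1 was at or under 4.02 CPM in GABAergic interneurons, the oligodendrocyte lineage, endothelial cells and microglia in every library. These classes were not tested against the granule lineage.

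Gene patterns across 7 classes and 4 libraries were compared by Pearson correlation of log2(CPM + 5) over 28 sums, which share libraries, depth and software version. For Gli1 the closest genes outside the marker lists were Gpr153 (r = 0.96), Spag5 (0.96), Gas1 (0.95), Arsj (0.95) and Gpc3 (0.95). For Gli2 they were Ift80, Mamdc2, Pde1a, Gli3 and St6galnac5 (r between 0.94 and 0.95). For Ptch1 they were Nup93, Wwc1, Ccdc30, Gm5089 and Epdr1 (r between 0.91 and 0.92). Among the 9 genes themselves, Gli1 correlated with Gli2 at 0.88, with Ptch1 at 0.72 and with Hhip at 0.05.

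Other pathway genes were read from lists. Between progenitors and granule neurons 59.4% of all genes were called, 30.3% as higher and 29.1% as lower. Of 5 listed coreceptors and glypicans 3 could be tested and all 3 were higher in progenitors than in granule neurons: Gas1 by 4.57 ± 0.21, Gpc3 by 4.98 ± 0.22 and Gpc4 by 2.02 ± 0.15 on the log2 scale (adjusted p at most 2.47e-07). Gas1 is a coreceptor that promotes signalling. Gpc3 and Gpc4 are cell surface glypicans, and their levels are not read as greater reception of the ligand. Of 8 ligand and release genes 2 could be tested, and neither was called. Of 18 Gli regulators and cilium genes 6 were higher and 8 lower. Those higher included Evc2 (3.50 ± 0.28), Evc (2.79 ± 0.29) and Kif7 (2.08 ± 0.26), which act at the cilium between Smo and the Gli factors, and Gsk3b, a kinase that marks Gli proteins for processing, was lower (−0.62 ± 0.08).

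Of 15 listed targets and progenitor growth genes 13 were tested, and 9 were higher and 0 lower in progenitors than in granule neurons. Over all genes 30.3% were called higher and 29.1% lower in that comparison. The chemokine receptor Cxcr4 was higher by 5.39 ± 0.28, the mitotic regulators Fbxo5 and Foxm1 by 4.90 ± 0.11 and 4.55 ± 0.23, and Sfrp1, a secreted Wnt antagonist, by 1.72 ± 0.10 (adjusted p at most 2.25e-08 for each). Granule neurons were gated on few cell cycle markers, and the part of that gate in this count was not tested. The list medians were 4.57 for coreceptors and glypicans, −0.20 for regulators and cilium genes and 1.01 for targets, against −0.01 over all genes.

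Within progenitors, the members split into a group that was higher in cycling cells and a group that was level. Cells with at least 2 of 12 S, G2 and M phase markers made up 61.1% of P14 cKO, 70.0% of P14 WT, 79.3% of P10 cKO and 91.0% of P10 WT progenitors (exact 95% intervals 51.4% to 70.1%, 66.2% to 73.6%, 74.5% to 83.6% and 88.7% to 93.1%). Gli3 had 79.7, 94.98, 99.0 and 17.9 CPM in cycling cells, against 14.8, 10.8, 25.03 and 0 CPM in non-cycling cells, and was higher within every library (log2 2.59 ± 0.23, adjusted p = 1.51e-08). Ccnd1 had 90.5, 125, 126 and 171 CPM in cycling cells, against 5.55, 32.5, 40.3 and 96.8 CPM in non-cycling cells (1.69 ± 0.20, adjusted p = 6.94e-07).

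Gli1 had 9.96, 18.7, 20.0 and 20.5 CPM in cycling cells, against 0, 2.89, 6.95 and 16.1 CPM in non-cycling cells, the last on 0, 4, 5 and 7 UMIs (1.71 ± 0.39, adjusted p = 0.00141). Gli2 was higher in cycling cells by 1.34 ± 0.16 (adjusted p = 1.30e-06). Boc was higher by 0.95 ± 0.16 (adjusted p = 6.63e-05), with P10 WT as the exception at 38.0 CPM in cycling and 41.5 CPM in non-cycling cells. Ptch1 did not differ beyond its error (0.06 ± 0.11, adjusted p = 0.715): it had 119, 137, 214 and 92.6 CPM in cycling cells, against 142, 131, 163 and 104 CPM in non-cycling cells. Smo (0.18, adjusted p = 0.281) and Mycn (0.20, adjusted p = 0.239) were not called either.

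Thus 5 of 8 tested members were higher in cycling progenitors, where 43.6% of genes were called, 22.6% as higher and 21% as lower. Cells with more UMIs pass a marker count more easily, and when every cell was thinned to 3000 UMIs before gating 0 members were called, with Gli2 at 0.45, Ccnd1 at 0.42 and Boc at 0.42 (adjusted p between 0.0863 and 0.143). Thinning left 3, 7, 8 and 27 Gli1 UMIs and 14, 49, 43 and 19 Gli3 UMIs in P14 cKO, P14 WT, P10 cKO and P10 WT progenitors. No thinned difference is given for either gene. Outside the cycle too, Gli2 in progenitors stood above granule neurons, a difference given without a test, at 40.7, 31.8, 102 and 23.0 CPM in P14 cKO, P14 WT, P10 cKO and P10 WT, against the 4.74 to 14.8 CPM of granule neurons. Among listed genes, the coreceptor Gas1 and the glypicans Gpc3 and Gpc4 were higher in cycling cells (log2 1.63, 3.47 and 0.68), as were 6 of 10 tested targets. The Gli inhibitor Sufu (−0.61), Gsk3b (−0.60) and the ciliary motor subunit Kif3a (−0.65) were lower, among 4 lower and 1 higher of 14 regulators and cilium genes.

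**Figure D3:**
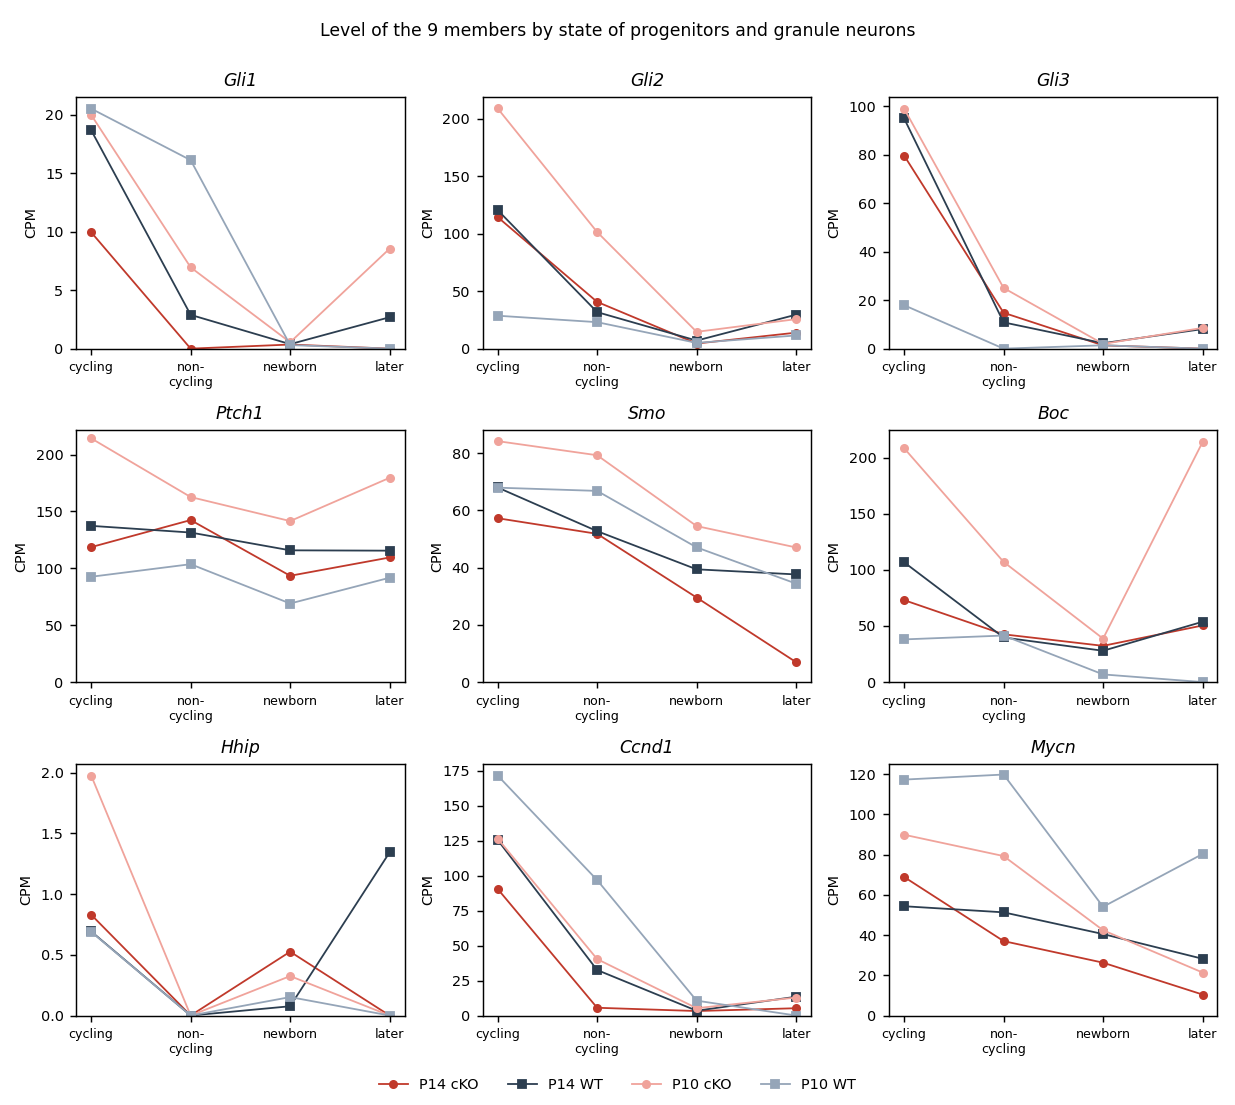
Level of each gene in CPM (linear axes from 0) in cycling and non-cycling progenitors and in newborn and later granule neurons, with 1 line per library. Gli3 and Ccnd1 drop between cycling and non-cycling progenitors in every library, whereas Ptch1 stays between 69.1 and 214 CPM in all 4 states.

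Granule neurons with a UMI of Nhlh1 or Cntn2 were called newborn, whatever other markers they held. They made up 93.9%, 96.5%, 97.4% and 96.2% of P14 cKO, P14 WT, P10 cKO and P10 WT neurons. Their sums held 746, 925, 910 and 1143 CPM of those markers in the same order. Markers of later neurons, such as Rbfox3 and Grin2b, stood at 1795, 1426, 1921 and 577 CPM in the same sums. Later neurons, which had a later marker and no UMI of Nhlh1 or Cntn2, numbered 101, 198, 52 and 33. Their median depths were 1730 to 4652 UMIs, against 5753 to 10921 in newborn neurons. Shallow cells miss a marker more easily, so the split is not read as one of maturity alone. Newborn neurons were lower than later ones in Gli2 (−1.58 ± 0.39, adjusted p = 0.00335) and Boc (−1.36 ± 0.25, adjusted p = 5.43e-05), 2 of 6 members tested, where 10.2% of genes were called, 3.91% as higher and 6.3% as lower. The Gli2 call was lost without P14 WT (−1.23, adjusted p = 0.184), and DESeq2 lost the call of Boc (−1.16, adjusted p = 0.323). Ptch1 had 93.5, 116, 142 and 69.1 CPM in newborn neurons and 110, 116, 180 and 91.7 CPM in later neurons, and was not called (−0.20, adjusted p = 0.592).

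Bergmann glia were taken as the astroglia with Gdf10. Over other astroglia, Ptch1 (1.12 ± 0.17), Gli3 (0.75 ± 0.16) and Hhip (2.08 ± 0.54) were called higher and Mycn (−1.92 ± 0.30), Boc (−0.97 ± 0.19) and Ccnd1 (−0.90 ± 0.23) lower, 6 of 9 members where 41.3% of genes were called, 19.9% as higher and 21.5% as lower. The Hhip call was lost without P14 WT (1.08, adjusted p = 0.0554) and that of Ccnd1 without P10 WT (−0.66, adjusted p = 0.0750), and Gli3 turned to −0.24 in strict astroglia and −0.052 with thinned cells. Atoh1 RNA was also lower in Bergmann glia than in the other astroglia (−2.15 ± 0.29), so granule lineage RNA moved with this comparison. Within strict astroglia 1 of 5 tested members was called, Boc at −1.24 ± 0.37 (adjusted p = 0.0411), where 5.98% of genes were, and Ptch1 stood at 0.70 ± 0.23 (adjusted p = 0.0824).

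The P14 WT library had enough strict cells to show levels, with 213 Bergmann glia and 184 other astroglia. Ptch1 stood at 488 CPM in Bergmann glia and 233 CPM in other astroglia. Gli1 had 49 UMIs (28.0 CPM) in Bergmann glia and 0 UMIs in other astroglia, where 0 allows up to 2.78 CPM. Hhip had 47.4 CPM against 6.48, Ccnd1 had 60.0 CPM against 3.70, and Boc ran the other way with 27.4 CPM against 89.8, each Bergmann glia first. These are values of 1 library with no test. In the P10 cKO library, with 25 Bergmann glia and 32 other astroglia, Gli1 (12.3 and 22.1 CPM), Hhip (49.3 and 81.1 CPM) and Boc (61.6 and 51.6 CPM) ran the opposite way on 2 to 11 UMIs each, and Boc did so in P10 WT (29.0 and 21.4 CPM). Hhip had 0 UMIs in Bergmann glia and 1 in other astroglia, in P14 cKO and in P10 WT alike. Only P14 WT thus showed more Hhip in Bergmann glia.

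Genotype was compared first over both ages, with age as a term. No gene was called between cKO and WT in progenitors (0 of 12748, 0%), granule neurons (0 of 14737, 0%) or astroglia (0 of 12444, 0%) by edgeR. At an unadjusted p under 0.05 there were 291, 472 and 137 genes, and DESeq2 called 5, 231 and 7. None of the members was called by either tool, and in edgeR none had an unadjusted p under 0.05. In progenitors the lowest adjusted p of a member in edgeR was 0.888, where Gli1 was at −0.72 ± 0.42 and Ccnd1 at −0.74 ± 0.39. DESeq2 gave an unadjusted p under 0.05 for Ccnd1 in progenitors (adjusted p = 0.781), for Boc and Mycn in granule neurons (adjusted p = 0.422 and 0.466) and for Gli2 and Ccnd1 in astroglia (adjusted p = 1.00 for both). Each of these fits rests on 4 libraries and 1 residual degree of freedom. The P10 pair, with unlike software versions, is part of each. On simulated sums edgeR recovered 14%, 6% and 3% of 4-fold changes in progenitors, granule neurons and astroglia. DESeq2 made 118, 417 and 92 false calls there in the same order. An absence of edgeR calls therefore says little about genotype, and the DESeq2 counts are not read as differences.

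The genotype effect on the difference between progenitors and granule neurons, was tested within libraries, with 2 residual degrees of freedom. It called 0 of 12934 genes (0%), against 468 at an unadjusted p under 0.05 and 0 in DESeq2. Gli1 showed −0.79 ± 0.54 (adjusted p = 0.971), Gli3 0.54 ± 0.35 (adjusted p = 0.971) and Boc −0.34 ± 0.41 (adjusted p = 0.974). The lists of ligands, coreceptors and glypicans, regulators and cilium genes, and targets had 0 genes called in each of these genotype fits.

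At P14, where both libraries share a software version, 7 of 8 members had a log2 ratio below 0 in progenitors, cKO over WT, without a test. Gli1 stood at 6.87 CPM (12 UMIs) in P14 cKO and 15.6 CPM (112 UMIs) in P14 WT, a log2 ratio of −1.13 with a 95% counting interval from −2.18 to −0.32. Ccnd1 stood at 64.2 CPM in P14 cKO and 107 CPM in P14 WT, a ratio of −0.74 (−1.04 to −0.46). Boc stood at 63.6 CPM in P14 cKO and 93.8 CPM in P14 WT, a ratio of −0.56 (−0.86 to −0.27).

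These 3 of 8 members passed a size rule of an absolute log2 ratio of at least 0.5, an interval off 0 and at least 20 UMIs over both libraries, which 9.78% of 12006 genes passed and 4.43% passed as lower. Gli3 (−0.40), Smo (−0.22), Gli2 (−0.17), Ptch1 (−0.11) and Mycn (0.14) did not pass. The member median was −0.31, against 0.01 over all genes. Atoh1 itself was at −0.30 (−0.56 to −0.06).

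The share of cycling cells differed between these 2 libraries, at 61.1% in P14 cKO and 70.0% in P14 WT. Within cycling progenitors, Gli1 was at −0.86 (−1.91 to −0.04), Boc at −0.54 (−0.89 to −0.22) and Ccnd1 at −0.47 (−0.78 to −0.18), and in non-cycling progenitors Ccnd1 was at −2.34 on 3 and 45 UMIs. With both states weighted alike the ratios were −0.98 for Gli1, −0.56 for Ccnd1 and −0.46 for Boc. Ccnd1 stayed below −0.5 under each of the 7 alternatives to the cell gates, filters, depth and weights that were run on all progenitors, from −0.51 to −1.60. Gli1 turned to 1.05 after thinning, on 3 and 7 UMIs, and was −0.38 with the interval reaching 0 under a looser gate of 3 of 8 markers. Boc was −0.25 after thinning, −0.33 under that looser gate and −0.23 under a stricter one of 5 of 8 markers, a gate that left no Gli1 UMI in P14 cKO.

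Of the listed genes at P14 in progenitors, the glypican Gpc3 and the mitotic regulator Fbxo5 passed the size rule as lower and Ift88, a ciliary transport gene, as higher, out of 3 coreceptors and glypicans, 11 targets and 18 regulators and cilium genes with at least 20 UMIs over both libraries. That share is near the 9.78% of all genes that passed, and these 3 were chosen after their values were seen.

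Granule neurons at P14 had 3 of 8 members past the size rule, all lower in cKO, where 18.5% of genes passed and 5.18% as lower. Mycn had 25.7 CPM in P14 cKO and 40.3 CPM in P14 WT (−0.65, −0.80 to −0.50). Gli2 had 4.74 CPM in P14 cKO and 7.42 CPM in P14 WT (−0.64, −1.01 to −0.29). Gli3 had 1.30 CPM in P14 cKO and 2.35 CPM in P14 WT (−0.83, −1.58 to −0.19), beside 3.02 and 1.77 CPM in microglia and macrophages of the same libraries. Ptch1 (−0.30) and Smo (−0.45) were lower by less, and Boc was at 0.21. No member passed after thinning, where Gli2 turned to 0.15.

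In P14 astroglia only Ccnd1 of 9 members passed, at 36.4 CPM in P14 cKO and 89.6 CPM in P14 WT (−1.29, −1.68 to −0.94), where 9.77% of genes passed and 4.1% as lower. Atoh1 UMIs moved with it in this gate, at 12.5 CPM in P14 cKO and 23.5 CPM in P14 WT. In strict astroglia, which hold no Atoh1 UMI, Ccnd1 was at −1.40 (−3.46 to −0.16) on 4 UMIs in P14 cKO and 109 in P14 WT. Ptch1 was then at −0.61 (−0.97 to −0.28), with 255 CPM in P14 cKO and 391 CPM in P14 WT, and Hhip at −2.71 (−8.60 to −0.77) on 1 and 90 UMIs. Bergmann glia made up 26.3% of astroglia in P14 cKO and 46.7% in P14 WT, and their part in these ratios was not tested.

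**Figure D4:**
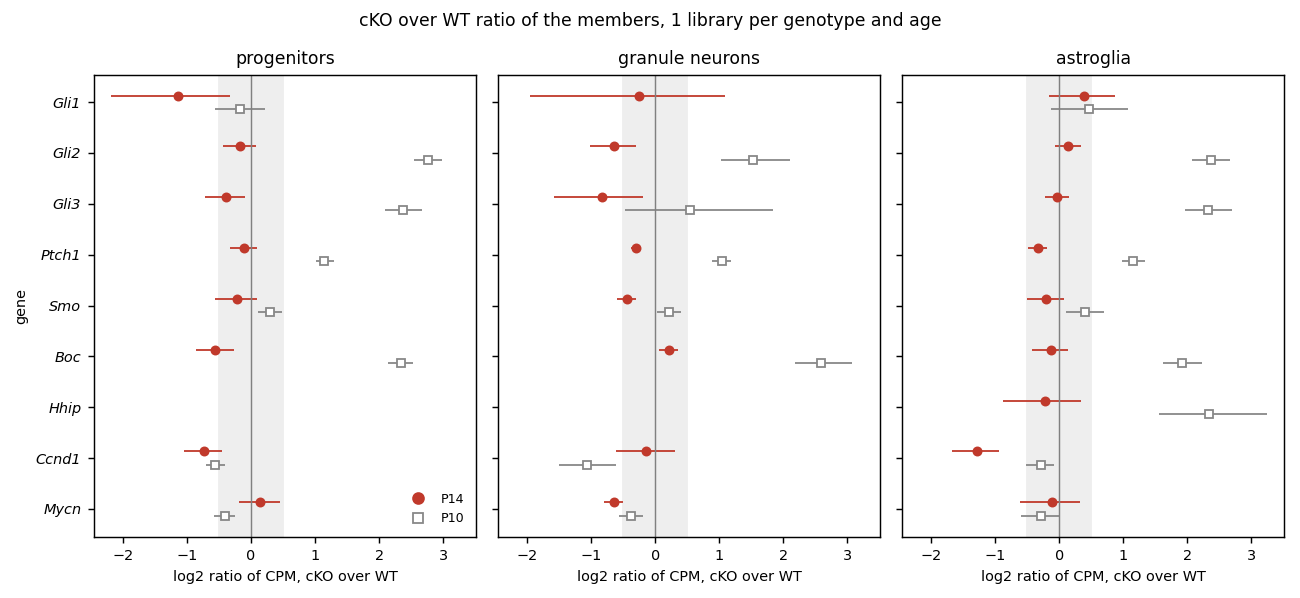
Log2 ratio of CPM, cKO over WT, for each gene in progenitors, granule neurons and astroglia at P14 (filled circles) and P10 (open squares). Bars are exact 95% counting intervals, the grey band is an absolute log2 ratio under 0.5, and genes under 20 UMIs are left out; the P14 points lie near or left of 0 and the P10 points of Gli2, Ptch1 and Boc lie right of the band in all 3 classes.

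At P10 the same genes gave other ratios. In P10 progenitors Gli2 stood at 193 CPM in cKO and 28.3 CPM in WT (2.76), Gli3 at 87.9 CPM in cKO and 16.9 CPM in WT (2.37), Boc at 193 CPM in cKO and 38.2 CPM in WT (2.34), and Ptch1 at 207 CPM in cKO and 93.2 CPM in WT (1.15). Ccnd1 was lower, at 113 CPM in cKO and 167 CPM in WT (−0.56). Smo (0.30), Gli1 (−0.17) and Mycn (−0.41) did not pass the size rule, which 48.4% of genes passed, 34.5% as higher and 13.9% as lower.

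The 2 P10 libraries were made with different software versions, and the ratio climbed with summed intron length over all genes. In 4 equal bins of rising intron length, median log2 ratios were −0.41, −0.10, 0.37 and 1.40 in P10 progenitors, against −0.05, −0.03, 0.01 and 0.04 at P14. Gli3, Gli2, Boc and Ptch1 have 257, 213, 69.4 and 51.1 kb of intron in GENCODE vM21 (GRCm38), and Gli1, Ccnd1 and Mycn 7.098, 5.29 and 2.53 kb. Genotype and software version cannot be told apart at P10. Among the members with little intron, Ccnd1 was at −0.74 at P14 and −0.56 at P10, Gli1 at −1.13 and −0.17, and Mycn at 0.14 and −0.41.

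**Figure D5:**
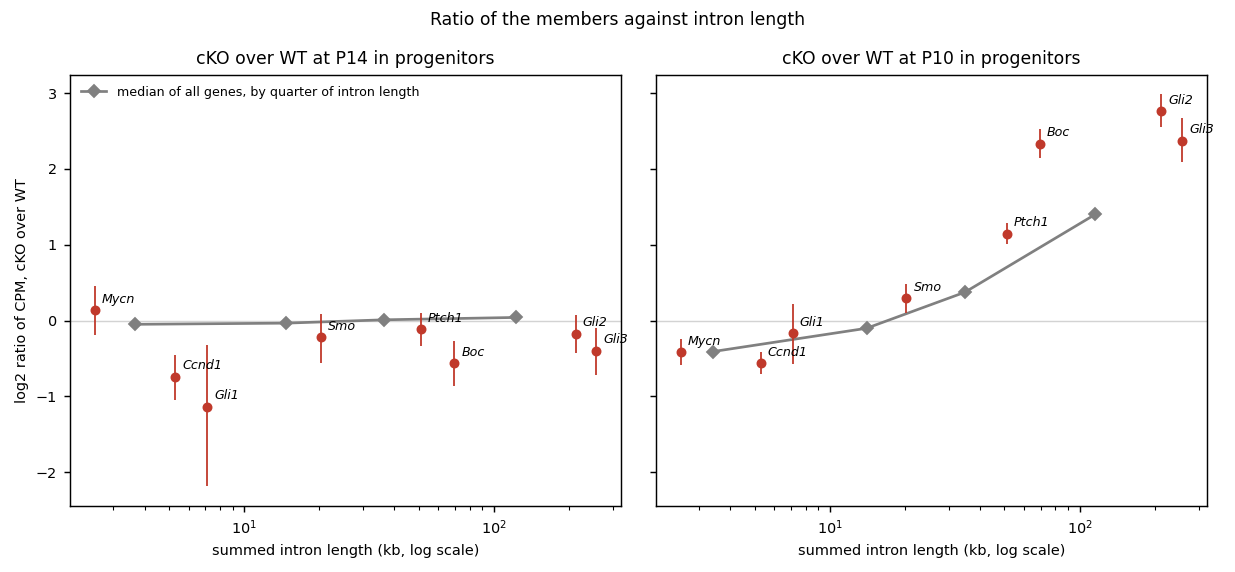
Log2 ratio of CPM, cKO over WT, in progenitors against summed intron length in kb (log axis), at P14 (left) and P10 (right). Red points are members with exact 95% counting intervals and grey diamonds are medians of all genes in 4 bins of intron length; the medians run from −0.41 to 1.40 at P10 and from −0.05 to 0.04 at P14.

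Gli2, Boc and Ptch1 also passed as higher in the other classes at P10. In granule neurons Boc (2.60), Gli2 (1.53) and Ptch1 (1.04) were higher in P10 cKO, Ccnd1 was lower (−1.06) and Gli3 did not pass (0.54), where 56.1% of genes passed, 32.8% as higher and 23.3% as lower. In astroglia Gli2 (2.36), Hhip (2.34), Gli3 (2.32), Boc (1.92) and Ptch1 (1.15) were higher, where 45.5% passed, and no member passed as lower. In strict astroglia Gli2 was at 2.17, Gli3 at 2.38, Ptch1 at 0.99 and Boc at 1.18. Hhip was there at 4.80 (2.69 to 10.7) on 19 UMIs in P10 cKO and 1 in P10 WT.

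The later age was set against the earlier one within each genotype. In cKO progenitors all 8 members with enough UMIs were lower at P14 than at P10 and passed the size rule, which 13.2% of genes passed, 4.87% as higher and 8.33% as lower. Boc had 63.6 CPM in P14 cKO and 193 CPM in P10 cKO (−1.60), Gli1 had 6.87 CPM and 18.0 CPM in the same order (−1.34), and Gli2 had 91.7 CPM and 193 CPM (−1.07). Ccnd1 (−0.82), Ptch1 (−0.71), Smo (−0.58), Mycn (−0.58) and Gli3 (−0.55) were lower by less, and Atoh1 was at −0.23 (−0.50 to 0.03). Thinned to 3000 UMIs per cell, progenitor sums held 201000 UMIs in P14 cKO and 585000 in P10 cKO. Gli1 then had 3 and 8 UMIs in the same order, near the ratio of the totals, as did Gli3 with 14 and 43. Boc, with 14 and 140, stayed lower at P14. The part of depth in these ratios was not tested.

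The member median was −0.76, against −0.05 over all genes, and Eftud2 was at −0.02. Cycling cells made up 61.1% of P14 cKO and 79.3% of P10 cKO progenitors. Within cycling progenitors the member median was −0.70, against −0.05 over all genes. Boc was at −1.51, Gli1 at −0.96, Gli2 at −0.86, Ptch1 at −0.85 and Smo at −0.55 in those cells. Ccnd1 was at −0.48, Mycn at −0.38 and Gli3 at −0.31. The share of all genes past the size rule was not computed for cycling cells, so members past it are not counted. The 2 cKO libraries come from Cell Ranger 7.1.0 and 7.0.1, and their median ratios in those bins lay between −0.13 and 0.05. The P14 cKO library is shared by this comparison and the one at P14, so their low values rest on the same 113 cells.

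In WT progenitors Mycn had 53.7 CPM at P14 and 117 CPM at P10 (−1.13), and Ccnd1 had 107 CPM at P14 and 167 CPM at P10 (−0.64). Gli1 was at −0.37 (−0.74 to −0.02). Gli3 (2.22), Gli2 (1.87), Boc (1.29) and Ptch1 (0.55) were higher at P14, in a comparison where 40.9% of genes passed, 30.8% as higher and 10.1% as lower, and the median ratio climbed with intron length from −0.29 to 1.19. Age and software version cannot be told apart in WT. In cKO granule neurons 5 of 7 members were lower at P14 than at P10, Gli2 (−1.63), Smo (−0.91), Mycn (−0.71), Ccnd1 (−0.70) and Ptch1 (−0.60), where 20.7% of genes passed.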

How the data were processed

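The deposited counts are whole UMI counts per gene and cell from 10x Genomics libraries. Per the submitters' processing notes Cell Ranger 3.0.2 and Seurat 4.1.3 were used with mm10, whereas the file headers name versions 7.1.0, 7.0.1 and 5.0.0. Cells with at least 500 genes and at most 20% mitochondrial UMIs were kept, and doublets scored by Scanpy 1.11.5 (160 to 557 per library) were removed. Cells were gated on markers, leaving 36.4% to 53.1% unassigned, and UMIs were summed per class and library. Differences between classes and states were tested with edgeR 4.0.16 (TMM, low count filter, library block, Benjamini-Hochberg over all genes tested, threshold 0.05), checked on simulated data, with DESeq2 1.42.0 as an alternative. Single-age ratios (0.5 UMI added, counting intervals) have no test. The labels do not say whether libraries came from separate animals, so p-values measure only the spread between these 4 libraries. Members, lists and gates were chosen with earlier results of these data known. List genes are named, up to 4 per contrast, by lowest p. Gates, filters, depth, tool and left-out libraries were varied.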

Additional observations from a re-analysis of the deposited data

Results flagged for a closer look

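A pair of genes had cKO over WT log2 ratios of opposite sign at the 2 ages, with counting intervals off 0 at both. In progenitors Boc was at −0.56 at P14 and 2.34 at P10. In granule neurons Gli2 was at −0.64 at P14 and 1.53 at P10. With 1 library for each genotype and age, the difference between the ages was not tested. Boc and Gli2 have 69.4 and 213 kb of intron, the P10 libraries differ in software version, and the part of that difference in these signs was not tested.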

How the results depend on the processing

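With 4 libraries, several Ptch1, Hhip, Gli3, Boc and Ccnd1 calls turn on 1 library, gate or depth, as given above, and genes under 20 UMIs were not compared between single libraries. No paired analysis was possible because the labels give no replicate numbers that pair cKO with WT libraries, while class and state fits had library as a block. Over single results and alternatives, 948 kept their direction and side of the threshold, 62 moved, 35 reversed, 18 gained and 21 lost a call; of main counts, 201 stayed within 1.5 times and 27 did not. The causes were not tested.

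Genes called between progenitors and granule neurons numbered 4127 with 5 of 8 markers and 4360 thinned, those between granule neurons and astroglia 5797 with 5 of 8 markers, and those between progenitors and astroglia 4617 to 6846 with 1 library left out. Cycling progenitors had 1250 genes and 0 members called when thinned. Newborn neurons had 1 member called in DESeq2, 4 thinned, and 1 to 3 members and 593 to 1395 genes with 1 library left out. Bergmann glia had 736 genes and 2 members thinned, and 283 genes and 1 member in strict astroglia. Genotype calls in progenitors, granule neurons and astroglia numbered 5, 231 and 7 in DESeq2, and without the low count filter 240 in progenitors and 3 in astroglia. At P14, members past the size rule in progenitors numbered 1 at a log2 ratio of at least 1, 1 with 3 of 8 markers and 1 thinned, in granule neurons 0 at that ratio and 0 thinned, and in astroglia 4 with 5 of 8 markers, 2 thinned and 3 in the strict set.

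Reversals were mostly of log2 differences near 0. For progenitors over astroglia, Smo turned to −0.020 (DESeq2), −0.058 (no filter), −0.066 (pairs of classes fitted alone) and −0.25 (5 of 8 markers), with −0.14 to 0.094 when 1 library was left out. Gli1 turned to 0.36 (2 Atoh1 UMIs), 0.28 (3 of 8 markers) and 0.16 (strict astroglia), with −0.52 to 0.13 leaving out 1 library, and Gli2 to 0.033 and 0.14 under those first 2 gates. For granule neurons over astroglia, Mycn turned to −0.15 (3 of 8 markers) and −0.025 (1000 genes and 10% mitochondrial), with −0.26 to 0.17 leaving out 1 library. For cycling over non-cycling progenitors, Mycn turned to −0.37 thinned, and Ptch1 ran from −0.079 to 0.15 leaving out 1 library. For newborn over later neurons, Ptch1 turned to 0.17 thinned. For Bergmann over other astroglia, Gli3 turned to −0.052 thinned and −0.24 in the strict set, and Gli2 ran from −0.15 to 0.068 leaving out 1 library. For cKO over WT at both ages, progenitor Smo turned to 0.18 (5 of 8), 0.10 (3 of 8) and 0.12 (thinned), neuronal Gli2 to −0.054 (5 of 8) and Gli3 to 0.31 (thinned). Astroglial Ptch1 turned to −0.029 (5 of 8), Smo to −0.030 and Gli1 to −0.18 (3 of 8), Smo to −0.62 and Hhip to −0.62 (thinned), and Smo to −0.49 (strict). The class by genotype value of Smo turned to 0.014 (DESeq2). At P14, thinning turned Gli1 in progenitors to 1.05 and Gli2 in granule neurons to 0.15.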
